A study of Mus musculus with 4 samples.

Results

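The genes described here are 51 cell cycle genes of the mouse, 24 that serve DNA replication in S phase and 27 that serve mitosis, followed through the formation of mammary tumours that lack Trp53 and Brca1. They are named by symbol for their role, and all 51 were found among the 27998 genes listed in all 4 single-cell RNA libraries. Cells were sampled from female mice of mixed genetic background whose Trp53 and Brca1 alleles were floxed and whose Rosa26 locus carried a YFP reporter that Cre switches on. Cre came from an adenovirus with a keratin 8 promoter (Ad-K8-Cre) injected into the milk ducts, so that deletion and YFP were aimed at luminal cells. The Trp53/Brca1-null genotype, aimed at luminal cells and not at leukocytes, was shared by all libraries. No library without the deletion was analysed here, and deletion was not measured per barcode. The 2 weeks library held sorted YFP+ cells, the 5 months library held sorted YFP+ cells together with CD45+ leukocytes, and the tumour 1 and tumour 2 libraries held live DAPI-negative cells from 2 tumour masses. The labels do not say how many mice gave each library, nor the age of the mice. The time points are 1 library each, so time, sort and library cannot be told apart.

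A cell that commits to division first licenses its replication origins with the MCM helicase, then fires them in S phase while enzymes of nucleotide supply and histone supply keep pace with the polymerases. After replication, cyclin B with CDK1 drives entry into mitosis, kinetochores and motors align the chromosomes, and the anaphase-promoting complex with its activator Cdc20 starts their separation. Genes of the first wave are known targets of E2F factors, and many of the second are known to be controlled through CHR and CCAAT elements close to their start sites. In the adult mammary gland luminal cells divide mainly in oestrous cycles and pregnancy, and p53 and BRCA1 both guard replicating DNA.

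The promoters of 5 members are printed because they show examples of the E2F, CHR and CCAAT letters named above. Promoter sequences of 300 bases (250 before and 50 after the start site) came from RefSeq on GRCm38.p6, which matched 45 of the 51 members with 49 promoters (21 S phase and 24 mitosis members). Capitals mark matches on either strand to E2F (TTTCCCGC, TTTCGCGC, TTTGCCGC or TTTGGCGC), CHR (TTTGAA) and CCAAT, and matches may overlap. Mcm6, an MCM helicase subunit (chr1:128359656-128359955, minus strand), held 3 E2F and 2 CCAAT matches, and another subunit, Mcm5 (chr8:75109259-75109558, plus strand), held 2 E2F and 3 CCAAT matches. Pcna, the sliding clamp of the polymerases (chr2:132253131-132253430, minus strand), held no E2F or CHR match and 1 CCAAT. Top2a, which untangles sister chromatids (chr11:99024140-99024439, minus strand), held 2 CHR and 6 CCAAT matches. Ube2c, the ubiquitin-conjugating enzyme of the anaphase-promoting complex (chr2:164769679-164769978, plus strand), held 1 CHR and 6 CCAAT matches.
Mcm6: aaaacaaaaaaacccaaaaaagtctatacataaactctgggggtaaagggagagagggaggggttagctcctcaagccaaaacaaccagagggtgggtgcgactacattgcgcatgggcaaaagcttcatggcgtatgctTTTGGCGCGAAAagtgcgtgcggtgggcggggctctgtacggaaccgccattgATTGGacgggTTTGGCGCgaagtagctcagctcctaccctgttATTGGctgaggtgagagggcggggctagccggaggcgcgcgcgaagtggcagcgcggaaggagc
Mcm5: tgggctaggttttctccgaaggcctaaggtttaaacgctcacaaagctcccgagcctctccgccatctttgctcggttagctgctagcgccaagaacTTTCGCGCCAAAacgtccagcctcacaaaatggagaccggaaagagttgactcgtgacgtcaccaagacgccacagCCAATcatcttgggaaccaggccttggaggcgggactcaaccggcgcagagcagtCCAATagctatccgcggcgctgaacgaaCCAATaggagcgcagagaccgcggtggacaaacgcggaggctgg
Pcna: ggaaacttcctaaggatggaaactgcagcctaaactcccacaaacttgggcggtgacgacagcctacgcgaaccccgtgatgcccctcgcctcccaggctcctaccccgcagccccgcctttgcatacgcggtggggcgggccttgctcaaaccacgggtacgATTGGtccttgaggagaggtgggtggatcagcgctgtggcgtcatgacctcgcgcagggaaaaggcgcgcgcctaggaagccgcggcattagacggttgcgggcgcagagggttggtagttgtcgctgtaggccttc
Top2a: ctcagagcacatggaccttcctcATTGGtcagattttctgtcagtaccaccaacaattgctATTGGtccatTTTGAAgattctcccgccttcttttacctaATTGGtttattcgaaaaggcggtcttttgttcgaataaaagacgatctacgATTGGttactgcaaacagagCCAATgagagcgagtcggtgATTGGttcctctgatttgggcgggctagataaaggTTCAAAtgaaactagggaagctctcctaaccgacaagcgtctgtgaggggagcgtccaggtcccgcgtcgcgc
Ube2c: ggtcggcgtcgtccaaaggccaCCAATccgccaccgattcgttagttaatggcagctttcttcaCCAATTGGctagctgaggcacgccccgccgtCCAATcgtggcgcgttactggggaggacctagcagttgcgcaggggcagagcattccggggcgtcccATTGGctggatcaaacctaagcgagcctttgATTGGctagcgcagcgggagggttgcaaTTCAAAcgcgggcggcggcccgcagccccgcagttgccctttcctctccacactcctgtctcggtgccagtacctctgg

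Over the 45 members with a promoter, E2F and CHR matches differed in frequency between the lists and CCAAT matches did so little. An E2F match was found in 10 of 24 S phase promoters (41.7%) and in 2 of 25 mitosis promoters (8%, those of Cdk1 and Tmpo), against 2.26% of 32851 promoters of all genes. A CHR match was found in 4 S phase promoters (16.7%) and 16 mitosis promoters (64%), against 17.9% of all promoters. A CCAAT match was found in 16 S phase promoters (66.7%) and 18 mitosis promoters (72%), against 37.4% of all promoters. CHR and CCAAT stood in the same promoter in 3 S phase promoters (12.5%) and 13 mitosis promoters (52%), against 6.95% of all. These counts describe letters in a window and no binding was measured.

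**Figure D1:**
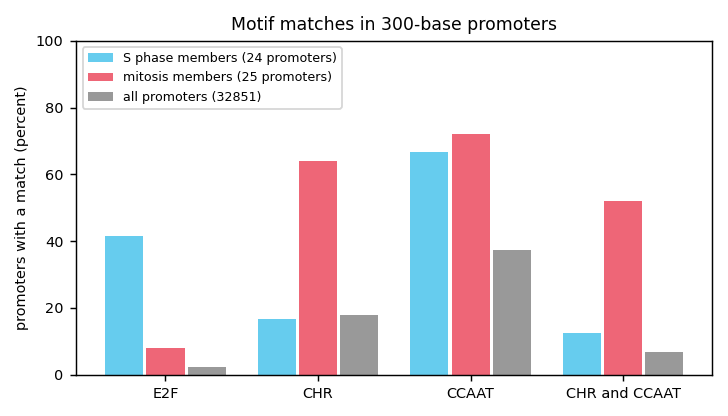
Share of promoters (percent) with at least 1 match to each motif, for the S phase members, the mitosis members and all promoters of the table. E2F letters are most frequent in S phase promoters (41.7%), and CHR with CCAAT in mitosis promoters (52%).

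The libraries held 1453, 4836, 2712 and 1780 cell barcodes (2 weeks, 5 months, tumour 1, tumour 2) with 6722044, 15060411, 23736366 and 13061942 UMIs, and 2 to 16 barcode sequences were shared by any 2 of them. Classes were set by rule. The epithelial class (Krt8 plus Krt18 at least 3 UMIs, Ptprc at 0) held 1132, 393, 317 and 371 barcodes. The myeloid class (Tyrobp at least 3 UMIs) held 625, 1951 and 730 barcodes at 5 months, in tumour 1 and in tumour 2, and the lymphocyte class (Cd3e or Cd79a at least 1 UMI) held 2047, 44 and 155. At 2 weeks each leukocyte class had 5 barcodes and was not analysed. All 8 epithelial markers were detected in the epithelial class of every library, at a summed 12776, 12603, 4241 and 6223 counts per 1000000 UMIs (CPM). All or all but 1 of 8 macrophage and monocyte markers were detected there too, at 196, 444, 572 and 416 CPM, with Tyrobp at 0 at 2 weeks. The part of these shifts in the results below was not tested.

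In the epithelial class the members were highest at 2 weeks, lowest at 5 months and in between in both tumours. The S phase members together held 813, 318, 478 and 488 CPM at 2 weeks, at 5 months, in tumour 1 and in tumour 2. The mitosis members held 2137, 340, 1009 and 632 CPM. Of the 27 mitosis members, 26 had their highest level at 2 weeks and 23 their lowest at 5 months. Of the 24 S phase members, 18 were highest at 2 weeks and 21 lowest at 5 months. The shares of all genes that were highest or lowest in these libraries were not counted. Such a sum cannot tell fewer cells with these transcripts from less transcript per cell.

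**Figure D2:**
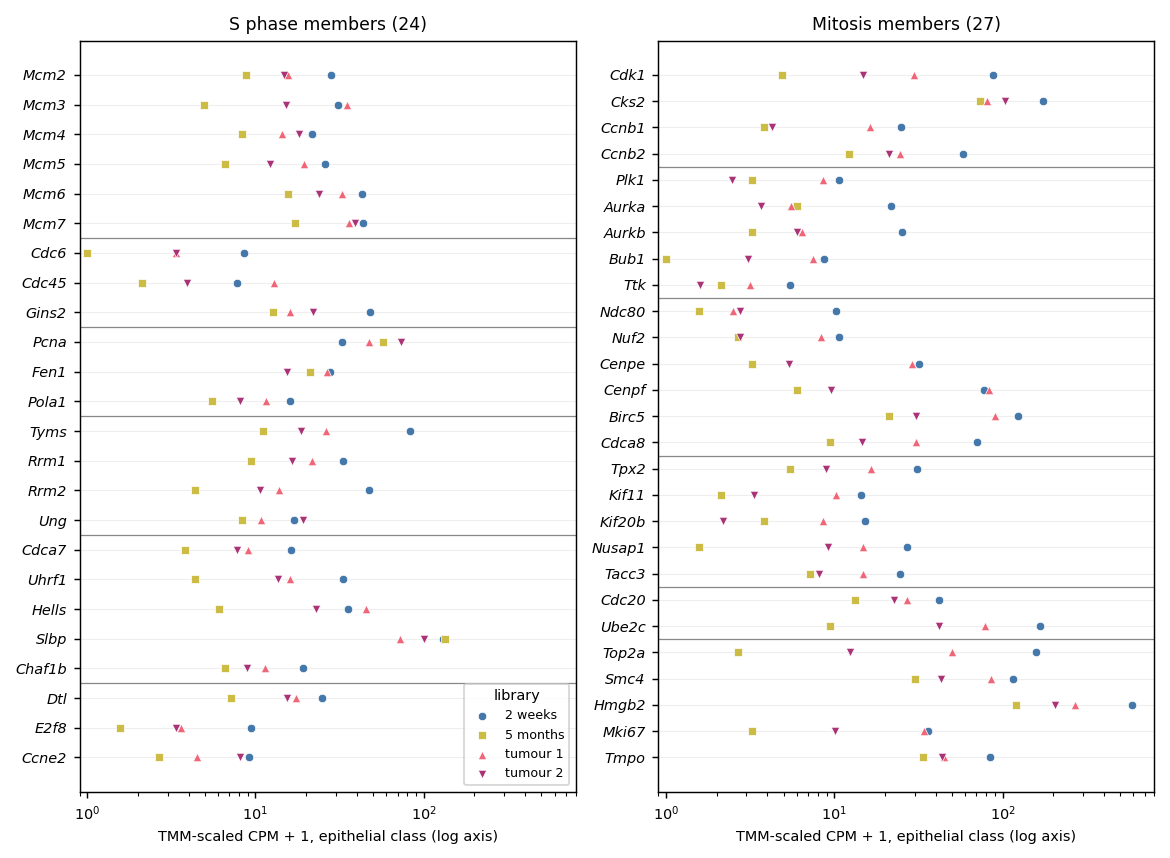
Level of each member in the epithelial class of each library, as TMM-scaled CPM plus 1 on a log axis, with members grouped by role (grey lines). Circles (2 weeks) lie to the right for 26 of 27 mitosis members, and squares (5 months) to the left for 23 of 27. Each point is 1 library, with no error bar.

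Levels of single members are given next as CPM scaled by TMM factors (0.947 to 1.06 in this class), each with the library it came from. Mcm7, the most abundant MCM helicase subunit here, had 42.4, 16.2, 35.0 and 38.2 CPM at 2 weeks, at 5 months, in tumour 1 and in tumour 2. The 5 months library stood alone below the others. Mcm2, Mcm4, Mcm5 and Mcm6 had the same low point and were highest at 2 weeks, while Mcm3 was highest in tumour 1 (34.2 CPM, against 30.1 at 2 weeks, 3.92 at 5 months and 14.1 in tumour 2).

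Gins2, a subunit of the GINS complex that joins the helicase as origins fire, had 47.3, 11.8, 15.1 and 20.9 CPM, so that both tumours lay nearer to 5 months than to 2 weeks. Cdc6, which loads the helicase onto origins, had 42 UMIs at 2 weeks (7.49 CPM), 0 at 5 months, 11 in tumour 1 (2.38 CPM) and 8 in tumour 2 (2.35 CPM). Against a floor of 3 counts in the 5 months library (1.68 CPM), Cdc6 was at least 4.46-fold lower at 5 months than at 2 weeks.

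Pcna went against most S phase members, with 31.6, 56.0, 46.3 and 72.0 CPM, and its lowest value was that of the 2 weeks library. Slbp, which binds the stem-loop of histone mRNAs, was the most abundant S phase member, with 129 and 133 CPM at 2 weeks and at 5 months, and 71.6 and 99.9 CPM in the tumours. Slbp alone held 39.6% of the S phase UMIs at 5 months, against 16.7% at 2 weeks, 14.3% in tumour 1 and 21.2% in tumour 2.

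Tyms, the thymidylate synthase, had 82.4, 10.1, 25.1 and 17.6 CPM, high at 2 weeks alone. Rrm2, the regulated subunit of ribonucleotide reductase, had 46.5, 3.36, 12.8 and 9.70 CPM, the same pattern. Uhrf1, which guides maintenance DNA methylation, had 32.3, 3.36, 15.1 and 12.6 CPM. Hells, a chromatin remodeller, was highest in tumour 1, with 34.4, 5.04, 44.1 and 21.8 CPM. Among the regulators, Dtl, a receptor of the CRL4 ubiquitin ligase that removes the licensing factor Cdt1, had 23.7, 6.16, 16.4 and 14.4 CPM. The repressor E2f8 had 8.38, 0.56, 2.60 and 2.35 CPM, the 5 months value resting on 1 UMI.

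Hmgb2, a chromatin protein counted with the mitosis members, carried the most UMIs of any member, with 589, 119, 270 and 204 CPM. It held 29.2%, 33.1%, 25.6% and 33.4% of the mitosis UMIs of the 4 libraries. Top2a had 157 CPM at 2 weeks (879 UMIs), 1.68 at 5 months (3 UMIs), 48.9 in tumour 1 (226 UMIs) and 11.5 in tumour 2 (39 UMIs). It was 93.3-fold lower at 5 months than at 2 weeks (95% counting interval 31.8 to 454), the widest distance among members with a UMI in both. Mki67, which coats mitotic chromosomes, had 35.0, 2.24, 33.1 and 9.11 CPM, so that tumour 1 stood beside 2 weeks and tumour 2 well below.

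Cks2, a small subunit that binds cyclin-dependent kinases, was the mitosis member that varied least by fold, with 172, 72.8, 79.4 and 102 CPM. Cdk1, the kinase of mitotic entry, had 86.3, 3.92, 28.8 and 13.8 CPM. Ube2c had 167, 8.40, 77.9 and 41.2 CPM. Both were highest at 2 weeks and lowest at 5 months. Aurkb, the kinase of the chromosomal passenger complex, had 24.4, 2.24, 5.41 and 5.00 CPM, and its relative Aurka, the centrosome kinase, had 20.7, 5.04, 4.54 and 2.65 CPM. The Aurora kinases were thus low in the tumours as well as at 5 months.

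Birc5, the passenger complex subunit survivin, had 123, 20.1, 89.1 and 29.4 CPM. Tpx2, which activates Aurora A on the spindle, had 29.96, 4.48, 15.6 and 7.94 CPM. Nusap1, a spindle microtubule protein, had 26.2, 0.56, 13.8 and 8.23 CPM, with 1 UMI at 5 months. The checkpoint kinase Bub1 had 43 UMIs at 2 weeks, 0 at 5 months, 30 in tumour 1 and 7 in tumour 2. It was at least 4.57-fold lower at 5 months than at 2 weeks by the same floor of 3 counts.

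Between 5 months and 2 weeks there was 1 library on each side and no test. A gene was counted when its scaled CPM differed at least 2-fold after adding 1 CPM and reached 20 CPM in the higher library. By this rule 13 of 24 S phase and 20 of 27 mitosis members were lower at 5 months, and 0 members were higher. Over all 12030 genes 6.31% were lower and 7.81% higher by the same rule. The median log2 difference of 5 months over 2 weeks was −1.81 for the S phase and −2.55 for the mitosis members (−1.81 and −2.50 with Cdc6 and Bub1 at their floor), against −0.01 for all genes. Without the barcodes of highest UMI total the mitosis median was −3.37. By role, the median was −2.91 for the anaphase-promoting complex pair Cdc20 and Ube2c, −2.81 for the kinetochore and passenger complex genes and −2.49 for the cyclin B and CDK1 group. It was −1.58 for the MCM subunits and −0.38 for Pcna, Fen1 and Pola1. The 3 S phase members farthest apart were Rrm2 (−3.45), Cdc6 and Uhrf1 (−2.93), and the 3 mitosis members were Top2a (−5.88), Ube2c (−4.16) and Cdk1 (−4.15).

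The tumours were then set against 2 weeks by edgeR's quasi-likelihood test on UMIs summed per library. The fit had 1 residual degree of freedom, between the tumours, and the lone libraries were assumed to vary as the tumours do. No member passed the adjusted p threshold of 0.05, where 3.89% of 12030 genes passed. At an unadjusted p under 0.05 there were 3 S phase and 9 mitosis members, all lower in the tumours. Of all genes 6.84% were lower at that p. DESeq2 called 0 members, where it called 346 of 12030 genes higher and 127 lower. The members leaned to one side all the same. Both tumours lay below 2 weeks in 19 of 24 S phase and 26 of 27 mitosis members, against 38.4% of all genes, and above it in 1 and 0 members, against 36.7%. The median log2 fold change was −0.70 for the S phase and −1.24 for the mitosis members, against 0.03 for all genes. With tumour 2 alone the medians were −1.06 and −2.28, and with tumour 1 alone −0.65 and −0.89.

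The largest differences of tumour over 2 weeks were those of Aurka (log2 −2.50, SE 0.73, edgeR adjusted p = 0.0881), Ndc80, a kinetochore linker (−2.48, SE 0.97, adjusted p = 0.213), and Top2a (−2.37, SE 0.72, adjusted p = 0.102). Among the S phase members they were those of Rrm2 (−2.04, SE 0.59, edgeR adjusted p = 0.0851), Tyms (−1.94, SE 0.55, adjusted p = 0.0821) and E2f8 (−1.74, SE 0.94, adjusted p = 0.386). Each of these 6 was lower in both tumours. Simulated libraries of this comparison recovered 5% of genes changed by log2 2 and 26% of those changed by log2 3. Pcna was the S phase member higher in both tumours (0.90, SE 0.60, edgeR adjusted p = 0.508). With library size in place of TMM factors, 2 S phase and 4 mitosis members passed, all lower in the tumours, where 2.88% of all genes passed as lower. With classes set after thinning 2 and 2 did, again lower, where 2.1% of all genes did.

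The tumours against 5 months used the same tumour libraries and the same fit, so the comparisons are not independent. No member passed at an adjusted p of 0.05, where 0.889% of genes did. At an unadjusted p under 0.05 there were 5 S phase and 8 mitosis members, all higher in the tumours, where 4.65% of all genes were higher at that p. DESeq2 called 2 mitosis members higher, where it called 0.416% of genes higher. Both tumours lay above 5 months in 21 of 24 S phase and 23 of 27 mitosis members, against 35.5% of all genes, and below it in 1 member of each list, against 35.2%. The median log2 fold change was 1.14 for the S phase and 1.39 for the mitosis members, against 0.05 for all genes. It was 1.10 and 1.39 with Cdc6 and Bub1 at their floor. The mitosis median was 1.82 with tumour 1 alone, 0.77 with tumour 2 alone, 2.12 with classes set after thinning and 2.61 without the barcodes of highest UMI total. Slbp was the S phase member lower in both tumours, and Aurka the mitosis member.

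The largest fitted differences of tumour over 5 months, beside Cdc6 and Bub1, were Nusap1 (log2 4.23, SE 1.15, edgeR adjusted p = 0.155) and Top2a (4.15, SE 1.13, adjusted p = 0.155). Hells followed (2.71, SE 0.80, edgeR adjusted p = 0.202) with Cdc45, which joins the helicase at firing (2.71, SE 1.34, adjusted p = 0.568). Counted over both tumours, Top2a was 19.7-fold higher than at 5 months (counting interval 6.66 to 96.0) and Nusap1 20.5-fold (3.59 to 818). Bub1 was at least 2.75-fold and Cdc6 at least 1.41-fold higher. Ube2c had the smallest adjusted p of all members (2.82, SE 0.74, edgeR adjusted p = 0.130).

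**Figure D3:**
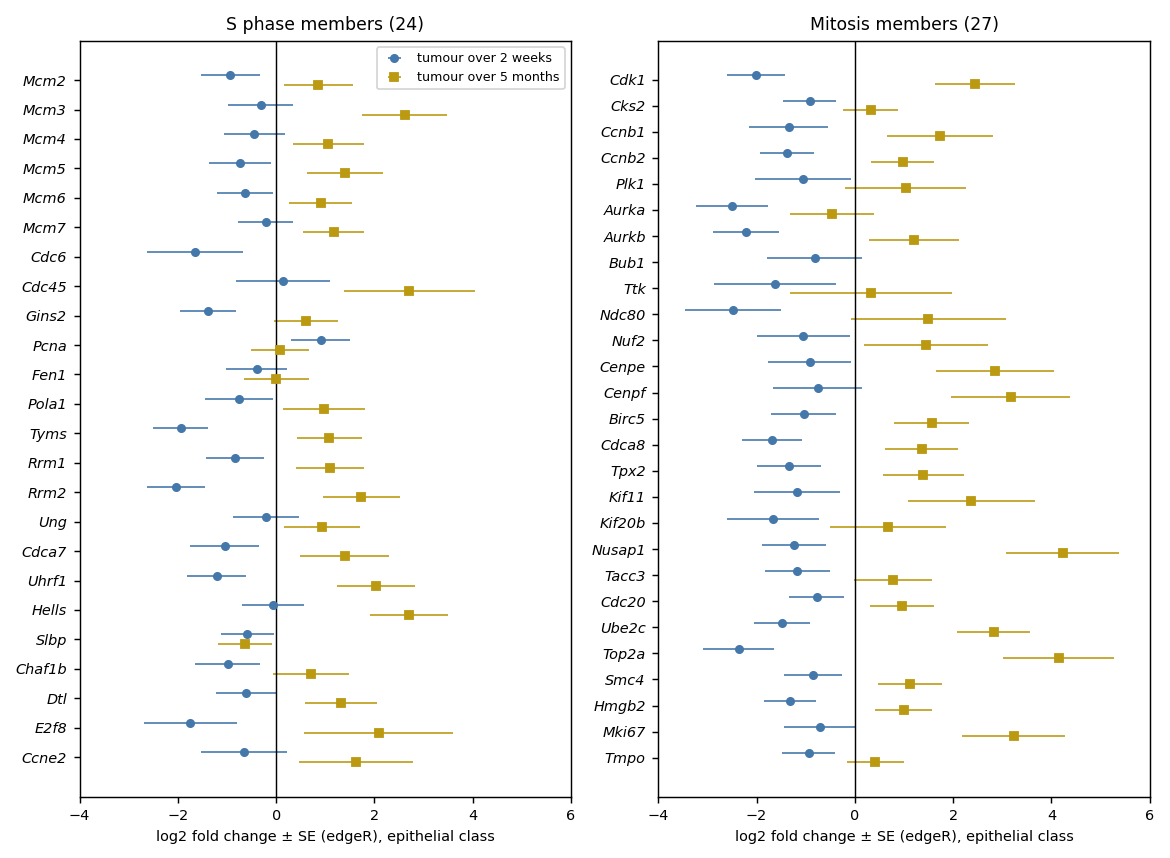
Log2 fold change of both tumours over 2 weeks (circles) and over 5 months (squares) for each member in the epithelial class, with its standard error from edgeR. Mitosis members lie left of 0 against 2 weeks, and most lie right of 0 against 5 months, while none passed the adjusted test. Cdc6 and Bub1 have no square, since they had 0 UMIs at 5 months.

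The tumours stood farther apart in the mitosis members than in the S phase members. Tumour 2 was below tumour 1 in 25 of 27 mitosis members, with a median log2 difference of tumour 2 over tumour 1 of −0.99, and in 17 of 24 S phase members, with a median of −0.23. The median of all genes was 0.01, and the share of them lower in tumour 2 was not counted. By the rule of 2-fold with 20 CPM in the higher library, 7 mitosis members and 1 S phase member were lower in tumour 2, where 5.36% of all genes were. No member was higher by the rule, where 3.88% of genes were. With 1 library a tumour there is no test of these differences. Markers of other cell types also differed between these epithelial classes, with fibroblast markers at 16.5 CPM in tumour 2 and 241 CPM in tumour 1, basal markers at 38.4 and 186 CPM, and neutrophil markers at 579 and 204 CPM. Their part in the member values was not tested.

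The kinetochore and passenger complex genes stood farthest apart, with a median of −1.58. Cenpf, a kinetochore-associated protein, had 8.52 CPM in tumour 2 and 82.0 CPM in tumour 1. Cenpe, the kinetochore kinesin, had 4.41 CPM in tumour 2 and 27.9 CPM in tumour 1. Top2a had 11.5 and 48.9 CPM in tumours 2 and 1. Ccnb1, a cyclin B, had 3.23 CPM in tumour 2 and 15.4 in tumour 1, while its partner Ccnb2 had 20.3 and 23.6 CPM. Cks2 (102 CPM in tumour 2, 79.4 in tumour 1) and Ndc80 (1.76 and 1.51) were the mitosis members not lower in tumour 2.

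The ratio of mitosis to S phase UMIs does not depend on scaling. It was 2.63 at 2 weeks (95% counting interval 2.54 to 2.72), 1.07 at 5 months (0.956 to 1.20), 2.11 in tumour 1 (2.01 to 2.22) and 1.30 in tumour 2 (1.21 to 1.38). Tumour 1 was nearer to 2 weeks and tumour 2 nearer to 5 months. Without Hmgb2 and Slbp, left out after their weight was seen, the ratios were 2.24, 1.18, 1.83 and 1.09. Tumour 2 then lay lowest, with an interval (1.01 to 1.18) that overlapped that of 5 months (1.03 to 1.37). All intervals cover counting error only.

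Each barcode was next thinned to 2000 UMIs, and a barcode was counted when it held 2 or more UMIs of a list. Thinning left 978, 366, 317 and 371 epithelial barcodes, after 154, 27, 0 and 0 with fewer UMIs were set aside. At 5 months it also set aside 964 of 2047 lymphocytes and 111 of 625 Tyrobp barcodes, against 0 in each tumour. Shares of these classes at 5 months therefore describe the deeper barcodes only. S phase UMIs reached the mark in 30.8% of barcodes at 2 weeks (interval 27.9 to 33.8), 12.8% at 5 months (9.59 to 16.7), 17.98% in tumour 1 (13.9 to 22.7) and 17.5% in tumour 2 (13.8 to 21.8). Mitosis UMIs did so in 49.8% (46.6 to 53.0), 8.20% (5.598 to 11.5), 26.5% (21.7 to 31.7) and 20.2% (16.2 to 24.7). The order of the mitosis shares was that of the summed levels. The intervals of tumour 1 and tumour 2 overlapped for both lists. Unthinned, at median depths of 4162.5, 4339, 14035 and 8079 UMIs, the shares were 47.7%, 35.1%, 74.1% and 63.9% for S phase and 59.8%, 27.7%, 74.1% and 63.6% for mitosis.

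**Figure D4:**
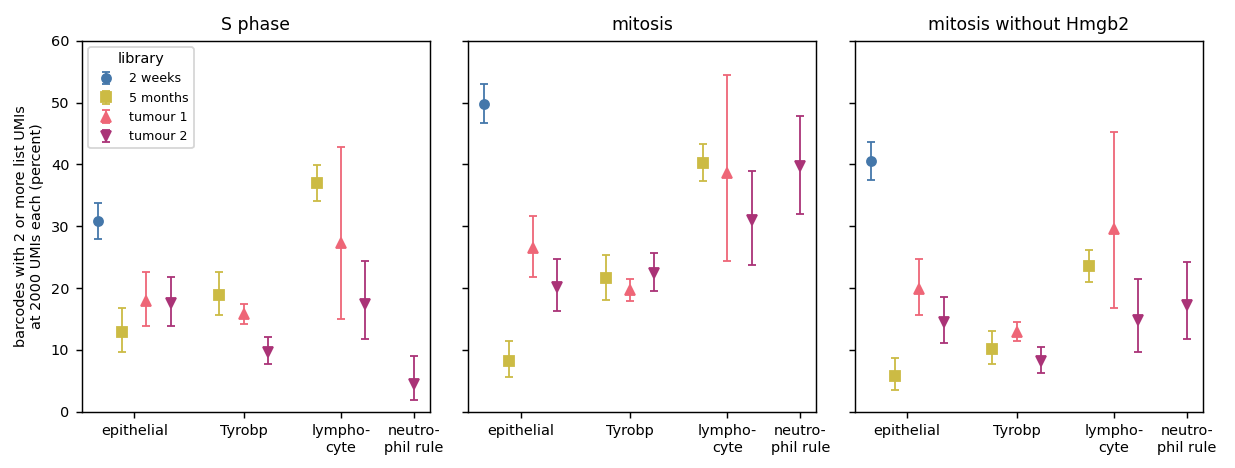
Share of barcodes (percent) with 2 or more UMIs of the S phase members, the mitosis members, and the mitosis members without Hmgb2, after thinning each barcode to 2000 UMIs, by class and library with exact 95% intervals. Classes of fewer than 40 barcodes are not drawn, and barcodes under 2000 UMIs are left out. Epithelial mitosis shares run from 8.20% at 5 months to 49.8% at 2 weeks, and neutrophils of tumour 2 reach 39.7% with Hmgb2 and 17.3% without it.

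These shares are not shares of dividing cells, because neutrophils, which do not divide once mature, also reached the mark. Of 156 neutrophils of tumour 2 (S100a8 plus S100a9 at least 20 UMIs, Csf3r at least 1, median 4372 UMIs), 39.7% held 2 or more mitosis UMIs, 17.3% did so without Hmgb2, and 4.49% held 2 or more S phase UMIs. The epithelial mitosis share of tumour 2 (20.2%) was below that of its neutrophils, and without Hmgb2 (14.6%, interval 11.1 to 18.6) it overlapped theirs (11.7 to 24.2), so it is not read as a share of dividing cells. The make-up of the UMIs differed, since Hmgb2 and Cks2 held 46.3% and 29.3% of the mitosis UMIs of these neutrophils, against 33.4% and 16.8% in the epithelial class of tumour 2. The S phase share of the epithelial class was above that of the neutrophils. In tumour 1 only 16 barcodes met the neutrophil rule, and no such share is given for the 2 weeks and 5 months libraries. Without Hmgb2 the epithelial mitosis shares were 40.5%, 5.74%, 19.9% and 14.6%.

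Epithelial barcodes rich in mitosis UMIs were found mainly at 2 weeks. At least 10 mitosis UMIs of the 2000 were held by 13.0% of epithelial barcodes at 2 weeks (127 barcodes), 0.273% at 5 months (1 barcode), 3.47% in tumour 1 (11) and 1.35% in tumour 2 (5). The highest epithelial barcode of each library held 30, 21, 27 and 17. Among lymphocytes 7.66% reached 10 at 5 months (83 of the 1083 left after thinning). In tumour 1 22.7% did (10 of 44), and in tumour 2 1.94% (3). In the Tyrobp class the shares were 1.36%, 1.18% and 0.685% in the same order. Top2a was detected in 19.1% of thinned epithelial barcodes at 2 weeks and in 0 of 366 at 5 months, which allows up to 0.820% of barcodes with a Top2a UMI at this depth (3 counts, with 3 UMIs in the class before thinning), then in 5.36% and 1.35% in the tumours. Pcna was detected in 5.73%, 9.56%, 10.4% and 12.4%, again with 2 weeks lowest.

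In the epithelial class, barcodes with both S phase and mitosis UMIs were most frequent at 2 weeks, where the share of each list was also highest. There 24.5% of barcodes reached the mark for both lists, 25.3% for mitosis alone and 6.24% for S phase alone. At 5 months the shares were 3.28%, 4.92% and 9.56%, and S phase alone was the largest of them. In tumour 1 they were 9.46%, 17.03% and 8.52%, and in tumour 2 6.74%, 13.5% and 10.8%. The S phase share at 5 months rested in part on Slbp, since it was 12.8% with Slbp and 6.83% without. The mitosis share there was 8.20% with Hmgb2 and 5.74% without. Barcodes with S phase alone were not counted without Slbp. The Pearson correlation of the lists across barcodes, given as a description over barcodes that share a library, was 0.44, 0.18, 0.36 and 0.28. In lymphocytes 21.9% of the 1083 thinned barcodes at 5 months, 27.3% in tumour 1 and 8.39% in tumour 2 held both. The correlations there were 0.50, 0.72 and 0.31. Epithelial barcodes with mitosis UMIs had more UMIs in all before thinning, with medians of 5667, 4960, 17177 and 9271 against 3940, 4575.5, 13400 and 7856.5 in the others.

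**Figure D5:**
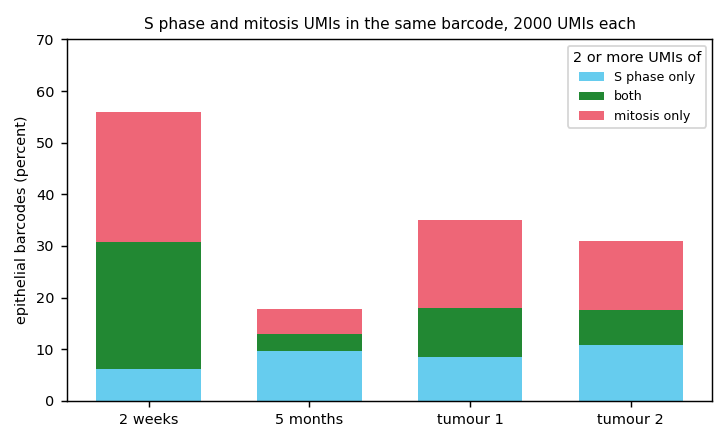
Epithelial barcodes (percent) with 2 or more UMIs of the S phase list alone, of both lists, or of the mitosis list alone, each barcode thinned to 2000 UMIs. Barcodes with both make up 24.5% at 2 weeks and 3.28% at 5 months.

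At 2 weeks the members that went most with the rest of their own list across barcodes were Hmgb2 (Pearson r 0.61), Top2a (0.56), Birc5 (0.48) and Ube2c (0.46). The median over the 27 mitosis members was 0.28. S phase members went together less, with a median of 0.18 and at most 0.29 for Rrm2. Of the genes outside both lists, those most like the mitosis sum over 4 libraries were the histone variant H2afz (mean r 0.40), the microtubule regulator Stmn1 (0.39) and the CDK subunit Cks1b (0.31), out of 5070 genes ranked. For the S phase sum they were H2afz (0.26), the prothymosin gene Ptma (0.23) and the dUTPase Dut (0.22). In counts this sparse such values are weak.

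Both luminal subsets carried mitosis UMIs at 2 weeks. Of 814 barcodes with hormone-sensing markers alone, 49.5% held mitosis UMIs (interval 46.0 to 53.0), and of 57 with luminal progenitor and alveolar markers alone 57.9% did (44.1 to 70.9). At 5 months 8.93% of 291 progenitor and alveolar barcodes did (5.92 to 12.8), and 2 of 27 hormone-sensing ones. Summed hormone-sensing markers stood at 4655, 665, 682 and 325 CPM over the 4 libraries and progenitor and alveolar markers at 1630, 31946, 10052 and 14188 CPM. The mitosis share of the progenitor and alveolar subset was lower at 5 months, but the subset need not hold the same cells in both libraries. At 5 months the Tyrobp class also held 840 CPM of these progenitor and alveolar markers. The part of cell type in the difference was not tested.

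Leukocytes of the same libraries were examined for the difference between tumours and 5 months. In the Tyrobp class the tumours held 438 (tumour 1) and 274 (tumour 2) CPM of S phase members, against 445 CPM at 5 months, and 724 and 534 CPM of mitosis members, against 614 CPM. No member passed among 24 S phase and 26 mitosis members tested, where edgeR called 0 of 11429 genes (0%). At an unadjusted p under 0.05 there was 1 S phase member, lower in the tumours where 4.87% of all genes were, and 0 mitosis members. DESeq2 called 0 members, where it called 68 of 11429 genes higher and 92 lower. Both tumours lay above 5 months in 4 S phase and 6 mitosis members (38.9% of all genes) and below it in 6 and 4 (35.3% of all genes). Top2a had 53.2 and 10.6 CPM in tumours 1 and 2, against 9.29 CPM at 5 months (log2 1.79, SE 1.15, edgeR adjusted p = 0.654). Tumour 1 alone was high. Neutrophil markers stood at 1082 and 29203 CPM in this class of tumours 1 and 2, against 2412 at 5 months, and their part in these values was not tested.

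In lymphocytes the tumours held 876 (tumour 1) and 631 (tumour 2) CPM of S phase members, against 1039 CPM at 5 months, and 1925 and 1002 CPM of mitosis members, against 1539 CPM. No member passed among 19 S phase and 17 mitosis members tested, where 0.0557% of 7186 genes did. At an unadjusted p under 0.05 there were 0 members of either list, where 359 of 7186 genes had such a p. DESeq2 called 0 members, where it called 35 genes higher and 3 lower. Both tumours lay above 5 months in 0 S phase members and 1 mitosis member (30.4% of all genes) and below it in 9 and 3 (34.2% of all genes). The lymphocyte class of tumour 1 was 44 barcodes with B cell and plasma cell markers at 80566 CPM, against 16538 CPM at 5 months. Slbp was lower in both tumours in every class, with 64.7 and 75.2 CPM against 139 CPM in the Tyrobp class and 146 and 136 CPM against 288 CPM in lymphocytes. None of these Slbp differences passed (edgeR adjusted p = 0.539 in the Tyrobp class and 0.984 in lymphocytes).

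A test of whether the difference between tumours and 5 months differed between classes was added after the separate fits had been seen. The median difference of epithelial minus Tyrobp log2 fold changes was 1.35 for both lists and −0.09 for all genes. Above 0 were 23 of 24 S phase and 24 of 26 mitosis members, and 5820 of all 12581 genes. No member passed with edgeR, where 0.0238% of genes did, and 3 S phase and 7 mitosis members had an unadjusted p under 0.05, all above 0, where 3.39% of genes did. With tumour 2 alone the S phase median was 1.83, and with tumour 1 alone 0.86. Mcm3 had the smallest adjusted p (log2 3.21, SE 0.75, edgeR adjusted p = 0.303).

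Set against the Tyrobp class within the same library, the epithelial class differed in 1 member. Cdc20 had 10.9, 23.5 and 19.2 CPM in epithelial barcodes at 5 months, in tumour 1 and in tumour 2, against 7.75, 6.89 and 4.32 CPM in Tyrobp barcodes. It was higher in 3 of 3 libraries (log2 1.53, SE 0.41, edgeR adjusted p = 0.0333), in a comparison where 29.6% of 10819 genes passed (13.7% higher and 15.9% lower). Hmgb2 had 105, 242 and 180 CPM in epithelial barcodes, against 337, 278 and 299 CPM in Tyrobp barcodes (−0.86, SE 0.33, edgeR adjusted p = 0.1005). Without tumour 1, without tumour 2, or without the barcodes of highest UMI total, no mitosis member passed. Without tumour 1, 675 of 10310 genes passed as higher and 1150 as lower.

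Other cell cycle genes, from lists of the same pathways, lay on the same sides. Of 24 other replication genes, 0 passed in tumour over 2 weeks (median log2 −1.08) and 0 in tumour over 5 months (1.12). Over all 12030 genes 3.89% and 0.889% passed in these comparisons, in either direction. Of 24 other mitosis genes 1 passed in tumour over 2 weeks, about the share of all genes. It was Spc24, a kinetochore subunit, with 15.6 and 15.9 CPM in the tumours against 89.9 CPM at 2 weeks (log2 −2.51 with SE 0.54, adjusted p = 0.0263 by edgeR, lower in both tumours). The list's medians were −1.30 against 2 weeks and 1.30 against 5 months. At 5 months 13 of the other replication genes and 11 of the other mitosis genes were past the 2-fold rule against 2 weeks, all lower. Among them were the thymidine kinase Tk1 and the cyclin Ccna2. By the same rule 6.31% of all genes were lower.

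Among 19 regulators of G1 and cell cycle exit, Cdkn2a and its neighbour Cdkn2b, which encode inhibitors of CDK4 and CDK6, rose in tumour over 2 weeks. In that comparison 3.89% of all genes passed in either direction. Cdkn2a was also the 1 regulator of the 19 that passed in tumour over 5 months, higher in the tumours. There 0.889% of all genes passed in either direction. Cdkn2b had 31.4 and 57.6 CPM in the tumours, against 5.53 CPM at 2 weeks (log2 2.999 with SE 0.74, adjusted p = 0.0469 by edgeR, higher in both tumours). Mitosis UMIs were found in tumour barcodes with and without a Cdkn2a UMI. In tumour 1 25.3% of 150 barcodes with Cdkn2a and 27.5% of 167 without held them, and in tumour 2 20.4% of 196 with it and 35 of 175 without it. The intervals overlapped in both tumours.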

How the data were processed

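The libraries were made with the 10x Chromium 3' v2 chemistry, per the labels' protocols. Per the submitters' processing notes the authors used Cell Ranger on mm10 (GRCm38), of a version not given in the sources used here. Files hold raw UMI counts per gene and barcode as deposited, not normalized. Median UMIs per barcode were 3876, 2162, 6972 and 6403.5. A further 694 genes listed at 5 months alone (4.59% of its UMIs) were left out. Barcodes needed 500 detected genes and a mitochondrial share of 10% or less, which kept 1301, 4668, 2640 and 1765. No doublet caller was run: barcodes meeting more than 1 class rule were left out (1, 214, 92 and 80).

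Counts were summed per library and class and tested with edgeR 4.0.16 (filterByExpr, TMM, glmQLFit, glmQLFTest, Benjamini-Hochberg over all tested genes), with DESeq2 1.42.0 as an alternative, in R 4.3.3. Classes of 1 library share its barcodes' source, so the comparison of classes had library as a block. The labels do not say that libraries came from separate animals. Shares used barcodes thinned without replacement to 2000 UMIs with seed 1, and exact Clopper-Pearson 95% intervals. PCR duplicates are collapsed by UMIs, and intervals cover counting error only. Correlations used log2 of UMIs plus 1. Values are named for the most abundant member of each of 12 roles and the 3 largest differences per list in the epithelial comparisons of groups. Some of the other genes that passed are named too. In the leukocyte and between-class comparisons fewer members are named, and not by that rule. A number of further members were named after their values were seen. The members and lists were chosen with earlier results of these data known. Of the fits, tumour over 2 weeks was tested on simulated data with 12030 genes and epithelial over Tyrobp with 10819. Figures were drawn with matplotlib 3.10.9.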

Additional observations from a re-analysis of the deposited data

Results flagged for a closer look

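Barcodes that met no class rule were outside every comparison and also carried mitosis UMIs. After thinning to 2000 UMIs, 2 or more mitosis UMIs were held by 78.9% of 128 such barcodes at 2 weeks (interval 70.8 to 85.6), 31.2% of 462 at 5 months, 18.2% of 236 in tumour 1 and 19.8% of 429 in tumour 2. Thinning had set aside 30 of 158 such barcodes at 2 weeks, 927 of 1389 at 5 months and 0 in each tumour. The share at 2 weeks was above that of the epithelial class of the same library (49.8%) and stayed at 76.6% without Hmgb2. S phase UMIs reached the mark in 71.9% of these 128 barcodes, and 68.0% held both lists. The source of these barcodes was not tested.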

How the results depend on the processing

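Shares of epithelial barcodes moved with the depth and the mark, as their construction sets, and are given for 2 weeks, 5 months, tumour 1 and tumour 2 in that order. At 1000 UMIs they were 15.3%, 6.36%, 8.83% and 7.01% for S phase and 33.2%, 4.07%, 19.2% and 9.7% for mitosis. At 4000 UMIs they were 58.3%, 29.1%, 35.2% and 38.8% for S phase and 74%, 24.7%, 43.2% and 39.1% for mitosis. With 1 or more UMIs they were 57.1%, 39.1%, 47.3% and 48.8% for S phase and 68.6%, 33.3%, 51.7% and 46.9% for mitosis. With 3 or more UMIs they were 19.3%, 3.83%, 9.46% and 7.55% for S phase and 39.3%, 2.73%, 19.2% and 10.2% for mitosis. Unthinned they were 47.7%, 35.1%, 74.1% and 63.9% for S phase and 59.8%, 27.7%, 74.1% and 63.6% for mitosis. Without Slbp the S phase shares were 27.1%, 6.83%, 15.1% and 12.1%, and without Hmgb2 the mitosis shares were 40.5%, 5.74%, 19.9% and 14.6%. The mitosis to S phase ratios without both were 2.24, 1.18, 1.83 and 1.09. The 5 months library was lowest in 10 of 10 settings for both lists and 2 weeks highest in 9 of 10, the exception being unthinned barcodes. Of tumour over 2 weeks, with no filter on low counts 2 S phase and 4 mitosis members passed, all lower (2.4% of all genes). Of tumour over 5 months, with library size alone 3 mitosis members passed (0.964% of all genes), with no filter 1 S phase and 5 mitosis members (1.22%), and with classes set after thinning 2 mitosis members (0.556%), all higher. With no filter 1 mitosis member passed in the Tyrobp class, higher (2.28%). Of epithelial over Tyrobp, 2 mitosis members passed with library size alone (33.6% of all genes in either direction), with no filter (with 1 S phase member, 23.2%) and with classes set after thinning (31.9%). In the added test of the difference between classes, 1 S phase member passed with no filter (0.426% of all genes, higher) and 1 with overlapping barcodes kept (1.23%). Medians were compared with the spread of the medians that leave out a tumour. In tumour over 5 months the S phase median was 1.21 with library size alone, 1.26 with all barcodes, 0.94 with classes set after thinning and 1.23 without the highest UMI totals, and the mitosis median 2.61 without the highest UMI totals. Library size alone moved the median of all genes to 0.13 in that comparison, to 0.17 in the Tyrobp class, to 0.31 in epithelial over Tyrobp and to −0.16 in 5 months over 2 weeks. Of 5 months over 2 weeks, which has no spread between libraries, the counts were 13 to 17 S phase and 20 to 22 mitosis members over the alternatives, the higher ones at 10 CPM, and the medians −2.04 to −1.76 for S phase and −3.37 to −2.53 for mitosis, with −3.37 without the highest UMI totals and −2.96 with classes set after thinning. The S phase median in lymphocytes was 0.13 without the highest UMI totals. The mitosis median of epithelial over Tyrobp was 0.54 with library size alone, 0.14 with no filter, 0.0093 with overlapping barcodes kept and 0.038 without the highest UMI totals. That of the difference between classes was 1.21 with overlapping barcodes kept, 1.70 with classes set after thinning and 1.81 without the highest UMI totals. Leaving out either tumour gave medians in tumour over 2 weeks −1.06 to −0.65 for S phase and −2.28 to −0.89 for mitosis; in tumour over 5 months 1.22 to 1.29 for S phase and 0.77 to 1.82 for mitosis; in the difference between classes 0.86 to 1.83 for S phase and 1.32 to 1.39 for mitosis; in epithelial over Tyrobp −0.33 to 0.11 for S phase and −0.20 to −0.055 for mitosis, and 0 to 1 S phase and 0 mitosis members passed in the last of these. No paired analysis was possible because the groups share fewer than 2 replicate numbers. The cause of these shifts was not tested. With 1 library at each time point and 2 tumours, only large differences could pass, and members with few UMIs at 5 months rest on 0 to 3 counts there (11 members).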
